A study of Mus musculus with 6 samples.

Results

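The miR-15, miR-16, miR-195 and miR-497 family comprises miRNAs whose 5p arms carry the same seed. In the small RNA libraries examined here it was taken as all reads of 18 to 26 nt that lay, on the sense strand and without mismatch, in the annotated hairpins of miR-15a, miR-15b, miR-16 (both copies), miR-195a and miR-497a. These are 6 hairpin genes of 1174 named miRNA hairpins, and they gave 11 arms of 1421 with at least 1 read. The libraries came from the sensorimotor cortex of adult male C57BL/6J mice at postnatal day 90. In the SCI group (n = 3) the whole cervical spinal cord had been cut through, and in the control group (n = 3) the cord had been laid open but left intact. Both groups were sampled 7 days after surgery, no genetic change or drug beyond anaesthesia is given for either, and each sample was collected on its own. The cortex lies far from the cut, and the comparison asks which small RNAs differ there.

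A miRNA is cut from a hairpin transcript, and 1 of the 2 arms is usually kept by an Argonaute protein, where the seed (bases 2 to 8 from the 5′ end) pairs with target mRNAs. The miR-15/16 family is known for restraining cell cycle and survival genes, among them cyclins and Bcl2, and its members are encoded as pairs in short clusters. A start moved by a base gives the RNA another seed, and bases added after cutting leave the seed as it is but lengthen the 3′ end.

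The mature 5p sequences below show what the members share, with the seed in capitals (RefSeq, GRCm38.p6). All 5 carry the seed AGCAGCA, which 10 of the 1679 mature mouse miRNAs in the RefSeq table have.
miR-15a-5p: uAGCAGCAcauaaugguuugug
miR-15b-5p: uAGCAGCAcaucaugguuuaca
miR-16-5p: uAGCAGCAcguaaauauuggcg
miR-195a-5p: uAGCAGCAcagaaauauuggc
miR-497a-5p: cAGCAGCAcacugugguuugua
Over the whole length, seed included, some members are closer to each other than others. miR-16-5p and miR-195a-5p are identical at 19 of 21 positions compared from the 5′ end, and miR-15a-5p and miR-15b-5p at 18 of 22. miR-497a-5p is identical to miR-15a-5p at 17 of 22 and to miR-15b-5p at 16 of 22. miR-16-5p and miR-497a-5p are identical at only 11 of 22.

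The 6 3p arms share no common seed, as these RefSeq sequences show, again with bases 2 to 8 in capitals.
miR-15a-3p: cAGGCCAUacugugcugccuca
miR-15b-3p: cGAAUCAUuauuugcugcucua
miR-16-1-3p: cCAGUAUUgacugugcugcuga
miR-16-2-3p: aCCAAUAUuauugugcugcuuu
miR-195a-3p: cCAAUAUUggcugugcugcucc
miR-497a-3p: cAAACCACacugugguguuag

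The hairpins lie in 3 clusters (GENCODE M21, GRCm38). Mir15a (chr14:61632027-61632110, minus strand) lies in an intron of the non-coding gene Dleu2, and Mir16-1 (chr14:61631880-61631972, minus strand), 54 bases away, overlaps an exon of a Dleu2 transcript. Mir15b (chr3:69009772-69009835, plus strand) and Mir16-2 (chr3:69009902-69009996, plus strand), 66 bases apart, lie in introns of Smc4, which encodes a condensin subunit. Mir497 (chr11:70234717-70234800, plus strand) and Mir195a (chr11:70235042-70235135, plus strand) are 241 bases apart, and the annotated Mir497b overlaps Mir497 on the other strand. The 2 hairpins of this last cluster are printed because the differences in 3p arms and in read sequence described further on fall there. The capitals mark the mature 5p and 3p sequences.
Mir497: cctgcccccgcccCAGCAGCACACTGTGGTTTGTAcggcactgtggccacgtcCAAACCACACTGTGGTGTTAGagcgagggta
Mir195a: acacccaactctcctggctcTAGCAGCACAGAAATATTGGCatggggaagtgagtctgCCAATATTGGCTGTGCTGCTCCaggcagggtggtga
The mature miR-16-5p is the same from Mir16-1 and Mir16-2, so its reads were counted once and cannot be told apart by copy. The 3p arms of both copies differ and were counted apart.

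The libraries held 10585062 to 24480988 reads, and 72.9% to 78.9% of them were counted in miRNA arms. Control 1 stood apart from the other 5 libraries: chi-square values per degree of freedom over 690 arms were 549 to 1019 for its 5 pairs and 112 to 305 for all other pairs. Values without it are given for the results that turn on it. The labelled tissue was checked with fixed marker miRNAs. The 4 neuronal markers (miR-124-3p, miR-128-3p, miR-9-5p and miR-138-5p) summed to 177189 to 196442 CPM (counts relative to all miRNA reads, scaled by TMM) in control and 155037 to 165395 in SCI. Taken singly, 3 of them were lower in SCI and 1 was higher. The 4 erythrocyte markers (miR-451a, miR-144 arms and miR-486-5p) summed to 977 to 1189 CPM in control and 710 to 1764 in SCI. These sums overlapped, and all 4 markers were higher in SCI when taken singly. Of the 6 other lists, the sums of oligodendrocyte markers (6441 to 8761 CPM in control, 5636 to 6417 in SCI) and mural markers (4562 to 5227 and 3384 to 3709) also lay lower in SCI without overlap, as the neuronal sum did. Endothelial (12765 to 17935 and 11687 to 15265), myeloid (220 to 450 and 224 to 285), choroid plexus (800 to 1237 and 653 to 1222) and muscle markers (581 to 655 and 544 to 614) overlapped. No marker was at 0. Red cells are also a known source of miR-16. In whole tissue, fewer cells of a type and less RNA per cell cannot be told apart, and the part of these markers in the results was not tested.

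The family made up 2.58% ± 0.459 (SD, n = 3) of the miRNA reads in control and 2.85% ± 0.0686 in SCI. The control libraries held 2.07%, 2.94% and 2.74%, and the SCI libraries 2.79%, 2.93% and 2.83%. The groups overlapped, and the low value of control 1 made up most of the control spread (two-sided exact permutation test p = 0.5, where 3 against 3 allows no p below 0.1). Without control 1 the control mean was 2.84%. Nearly all of these reads came from the 5p arms. The 3p arms together gave 0.117% ± 0.0419 of the family's reads in control and 0.0940% ± 0.000225 in SCI. That order rested on control 1, at 0.165%, and turned without it (control mean 0.0928%).

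miR-16-5p dominated the family. It held 82.1% ± 2.08 of the family's 5p reads in control and 81.6% ± 1.21 in SCI, and was the 13th most abundant of the 1421 arms. Its level was 17976, 25651 and 22371 CPM in control 1, 2 and 3 and 22744, 22719 and 21566 CPM in SCI 1, 2 and 3. The SCI libraries lay inside the control range, and the log2 change of SCI over control was 0.02 ± 0.14 (SE; adjusted p = 0.95, edgeR quasi-likelihood test over 690 arms). Without control 1 it was -0.11 (adjusted p = 0.641).

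miR-195a-5p came next. It measured 2192, 3110 and 3422 CPM in control and 2788, 3673 and 2917 CPM in SCI, groups that overlapped (log2 change 0.10 ± 0.18, adjusted p = 0.806; -0.07 without control 1). miR-15a-5p measured 1325, 1064 and 1304 CPM in control and 1299, 1208 and 1215 CPM in SCI, with a log2 change of 0.01 ± 0.13 (adjusted p = 0.971). Its SCI values all lay between the lowest and the highest control value.

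miR-497a-5p, from the cluster of miR-195a, measured 551, 302 and 379 CPM in control and 401, 425 and 436 CPM in SCI. Control 1 was the highest and control 2 the lowest of the 6, and the log2 change was 0.03 ± 0.21 (adjusted p = 0.952). Without control 1 it was 0.30 ± 0.14 (adjusted p = 0.363). miR-15b-5p, the lowest of the 5p arms, measured 173, 242 and 206 CPM in control and 227, 230 and 262 CPM in SCI (log2 change 0.21 ± 0.16, adjusted p = 0.575; 0.10 without control 1). The groups overlapped through control 2.

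The order of the 5p arms was the same in all 6 libraries: miR-16, miR-195a, miR-15a, miR-497a, miR-15b. The ranges of neighbours in this order did not overlap over the libraries, with 302 CPM as the lowest value of miR-497a-5p and 262 CPM as the highest of miR-15b-5p. As a share of the family's 5p reads, miR-15b-5p was 0.777%, 0.796% and 0.743% in control and 0.826%, 0.812% and 0.994% in SCI. The SCI shares all lay above the control shares (exact permutation p = 0.1, the smallest possible; adjusted p = 1 over 10 shares and sums compared). For the other 4 members the shares overlapped.

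The 3p arms were far less abundant, at 12 to 152 reads per library. miR-195a-3p measured 9.14, 9.83 and 6.39 CPM in control and 3.87, 5.77 and 3.91 CPM in SCI. Every SCI library lay below every control library. The log2 change was -0.88 ± 0.25 and edgeR's adjusted p was 0.256. It was the only one of the 11 arms under 0.05 before adjustment. miR-497a-3p measured 5.71, 1.49 and 1.73 CPM in control and 1.29, 1.75 and 1.34 CPM in SCI (log2 change -1.06 ± 0.50, adjusted p = 0.380). Its difference rested on control 1: without that library the log2 change was -0.15. For both arms, a fit without a filter on low counts gave adjusted p of 0.0379 and 0.0422, with 30 of 1421 arms called.

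The other 3p arms overlapped between groups. miR-15b-3p measured 5.50 to 7.47 CPM in control and 6.57 to 8.60 CPM in SCI. miR-16-1-3p measured 4.60 to 6.5 and 4.93 to 5.83 CPM, miR-16-2-3p 3.48 to 6.86 and 4.65 to 4.81 CPM, and miR-15a-3p 1.49 to 2.52 and 1.81 to 2.24 CPM. Of the 480 reads counted for miR-16-1-3p, 65 (13.5%) were a 20 nt read that starts 20 bases before the arm's most used start. It ends just before that start and holds no part of the mature form. The count of this arm is thus not of the mature form alone.

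**Figure D1:**
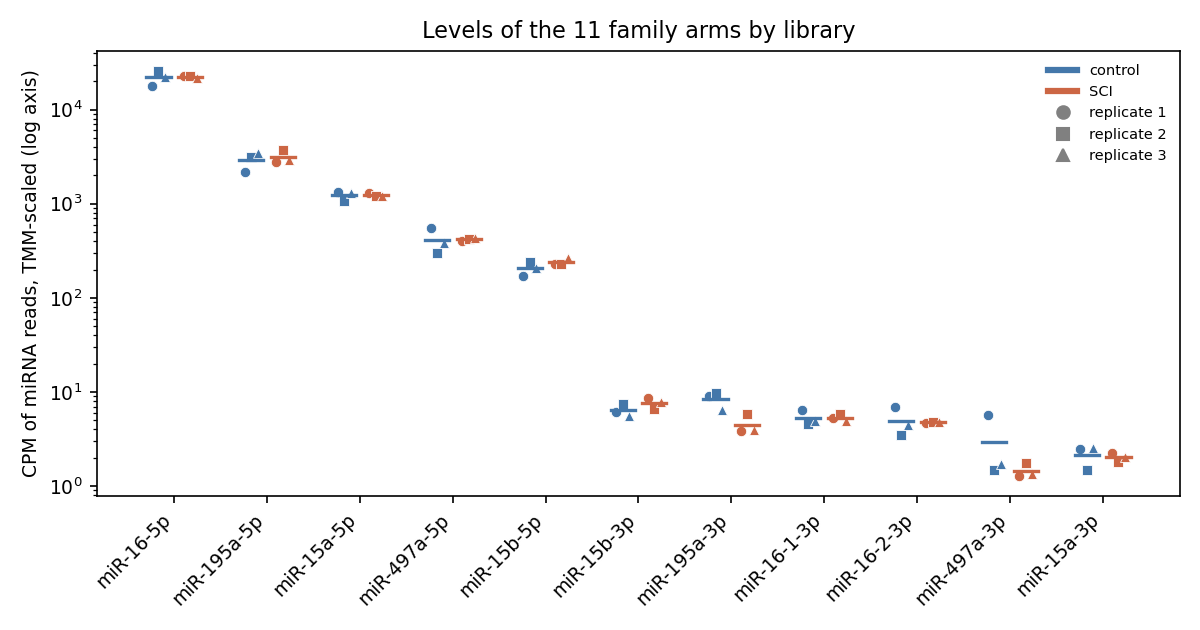
Level of each of the 11 family arms in the 3 control and 3 SCI libraries, in TMM-scaled CPM on a log axis; bars are group means and symbols mark replicates. The 5p arms span from 173 to 25651 CPM with overlapping groups, and among the 3p arms the 3 SCI values of miR-195a-3p lie below its 3 control values.

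Over the family, all 11 arms passed the filter on low counts, 6 of them were higher and 5 lower in SCI, and none passed the edgeR test at an adjusted p under 0.05. Of all 690 arms tested, 0 (0%) were called, 97 (14.1%) had an unadjusted p under 0.05 beside 1 of the 11 members, and DESeq2 called 12 and limma-voom 0, none of them a member. The median log2 change was 0.01 over the 11 members and -0.02 over all 690 arms. One member arm, miR-195a-3p, had groups that did not overlap, against 20.3% of all arms (9.13% higher and 11.2% lower in SCI). The directions of miR-16-1-3p and miR-16-2-3p, with log2 changes of -0.01 and -0.08, turned to 0.11 and 0.04 with scaling by the total miRNA count, a scaling that moved all arms by a median of 0.12, and that of miR-16-1-3p also turned with the upper quartile (0.02) and with all library reads as library size (0.04).

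Ratios between members, which do not depend on scaling, were compared for 6 pairs chosen for cluster or sequence. miR-195a-5p over miR-497a-5p, from 1 cluster, was 3.98, 10.3 and 9.03 in control and 6.96, 8.65 and 6.69 in SCI. Control 1 was the low one, since there miR-195a-5p was lowest and miR-497a-5p highest. miR-15a-5p over miR-16-1-3p, also of 1 cluster, varied far less, from 203 to 263 in control and from 206 to 245 in SCI. The 3p arms of the 2 miR-16 copies stood at ratios (16-1 over 16-2) of 0.948 to 1.32 in control and 1.03 to 1.21 in SCI. In both ratios the count of miR-16-1-3p includes the read described above that lies outside the mature form. That read was 0% to 16.7% of the arm in control and 13.1% to 18.2% in SCI, so neither ratio is of the mature 3p form alone. In none of the 6 pairs did the groups stand apart (exact permutation p of 0.5 to 1, adjusted p = 1 for each).

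The balance of the 2 arms of a hairpin was compared as the 3p over 5p ratio. For Mir195a the ratio was 0.00417, 0.00316 and 0.00187 in control and 0.00139, 0.00157 and 0.00134 in SCI. For Mir497 it was 0.0104, 0.00494 and 0.00456 in control and 0.00322, 0.00413 and 0.00308 in SCI. In both hairpins of this cluster every SCI ratio lay below every control ratio, as in 11.9% of the 278 hairpins tested (7.55% had every SCI ratio above, 19.4% either). The log2 changes were -1.02 ± 0.30 (unadjusted p = 0.0119, limma adjusted p = 0.348) and -0.83 ± 0.33 (unadjusted p = 0.0401, limma adjusted p = 0.442). Neither passed, and 0 (0%) of the 278 hairpins did, with 30 (10.8%) at an unadjusted p under 0.05. Without control 1 the log2 change of Mir497 was -0.47 and that of Mir195a -0.76. In the other 4 hairpins the groups overlapped, with log2 changes of -0.08 (Mir15a), 0.04 (Mir15b), -0.03 (Mir16-1) and -0.04 (Mir16-2). Without control 1 those of Mir16-1 and Mir16-2 were 0.26 and 0.36. For Mir16-1 and Mir16-2 the denominator was miR-16-5p of both copies, so their ratios do not give the arm balance of either hairpin alone.

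The position of the 5′ end differed most between the groups. Most reads of each 5p arm began at the annotated first base, and the share beginning elsewhere was 0.459% to 3.29%. For miR-16-5p that share was 1.76%, 1.78% and 1.49% in control and 0.903%, 0.806% and 0.752% in SCI. The groups were far apart, and every control value exceeded every SCI value by more than the spread within a group. The log2 change of shifted over unshifted reads was -1.04 ± 0.12 (limma adjusted p = 0.0210), and miR-16-5p had the smallest p of the 421 arms tested. For miR-195a-5p the share was 2.05%, 1.89% and 1.69% in control and 1.16%, 0.976% and 0.973% in SCI. It fell by 0.87 ± 0.12 on the log2 scale (limma adjusted p = 0.0210), again with no overlap.

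The other 5p arms moved less. miR-497a-5p had 2.77%, 3.29% and 2.77% shifted reads in control and 2.58%, 2.57% and 2.11% in SCI, without overlap, but its log2 change of -0.29 ± 0.13 did not pass (limma adjusted p = 0.249). miR-15a-5p had 1.32%, 1.31% and 1.20% in control and 1.26%, 1.15% and 1.09% in SCI (log2 change -0.13 ± 0.10, limma adjusted p = 0.490), groups that overlapped. miR-15b-5p rested on only 15 to 29 shifted reads per library. Its share was 1.01%, 1.03% and 0.459% in control and 0.569%, 0.567% and 0.537% in SCI (log2 change -0.49 ± 0.33, limma adjusted p = 0.439; -0.31 without control 1 and -0.29 without control 2), with control 3 as the lowest of all 6. Without control 3 its log2 change was -0.87 and passed (limma adjusted p = 0.0190).

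**Figure D2:**
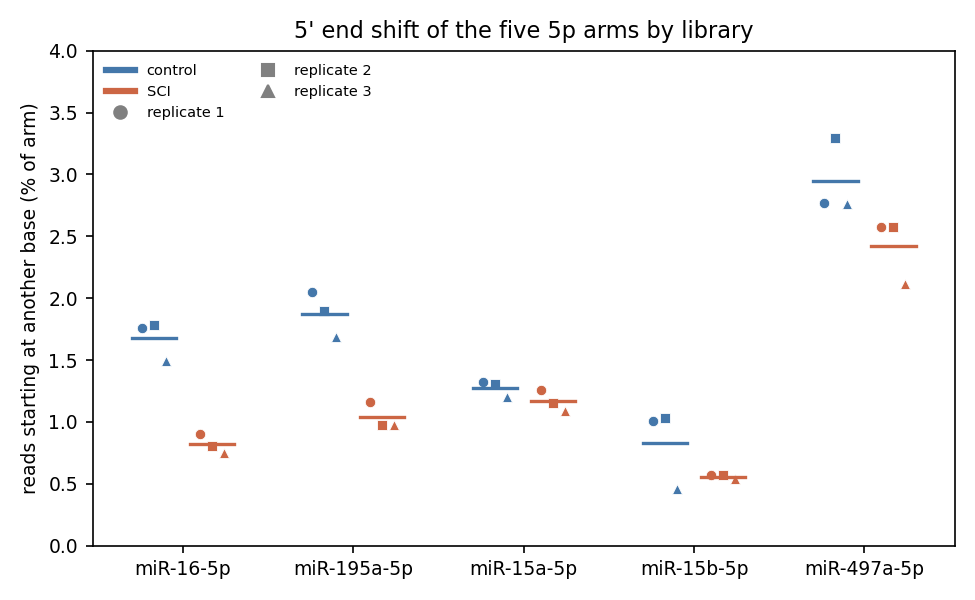
Share of reads of each 5p arm, in percent of the arm, that start at a base other than the most used one, by library; bars are group means and symbols mark replicates. For miR-16-5p and miR-195a-5p the 3 SCI libraries lie well below the 3 control libraries, from 0.752% to 1.16%, while those of miR-15a-5p overlap.

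The 3p arms gave few reads for this measure. In miR-15a-3p, miR-15b-3p and miR-195a-3p, too few to be tested, the share was 0% to 7.69%, 0% to 3.45% and 0% to 3.80% over the 6 libraries. The other 3 were often read from another base. miR-16-1-3p had 46.3%, 29.7% and 29.8% in control and 39.3%, 30.1% and 26% in SCI, miR-16-2-3p 19.8% to 32.1% and 18.7% to 29.6%, and miR-497a-3p 47.4% to 66.7% and 52.4% to 66.7%, each with overlap. In miR-16-1-3p these include the read that ends just before the most used start, at 0% to 16.7% of the arm in control and 13.1% to 18.2% in SCI. That read is not a shifted form of the mature arm. The share of miR-16-1-3p and its log2 change are thus not of shifted starts alone. In miR-497a-3p the most used start of the exactly matching reads lies 2 bases before the annotated one. The reads at the annotated start (24.2% to 50% over the 6 libraries) therefore count as shifted there. Reads with the base change described further on are left out. The most abundant of these (201 reads) begins at the annotated start, which would be the most used one with them included. The shifted share of miR-497a-3p thus rests on exact matching. Of the 11 members, 8 had enough shifted reads to be tested, all 8 were lower in SCI, 3 of them without overlap, and 2 passed. This stands against a background in which 39 of 421 arms passed (9.26%), 37 of them lower (8.79%) and 2 higher (0.475%). Groups did not overlap in 34% of the arms, with SCI lower in 29.9% and higher in 4.04%, and 25.9% had an unadjusted p under 0.05. The members with a log2 change nearest 0 were miR-497a-3p (-0.01) and miR-16-2-3p (-0.09). The median log2 change was -0.26 over the 8 members and -0.13 over all 421 arms, of which 29.9% had a log2 change above 0. The lower share in SCI was therefore not particular to the family. With 1 library left out, both calls were lost without control 1, control 2, SCI 2 or SCI 3 (limma adjusted p of 0.0569 to 0.0872), where 0 of all arms were called (85 to 98 at an unadjusted p under 0.05), while the log2 change kept to -0.98 to -1.13 for miR-16-5p and -0.80 to -0.95 for miR-195a-5p. Both stayed called without control 3 or SCI 1.

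**Figure D3:**
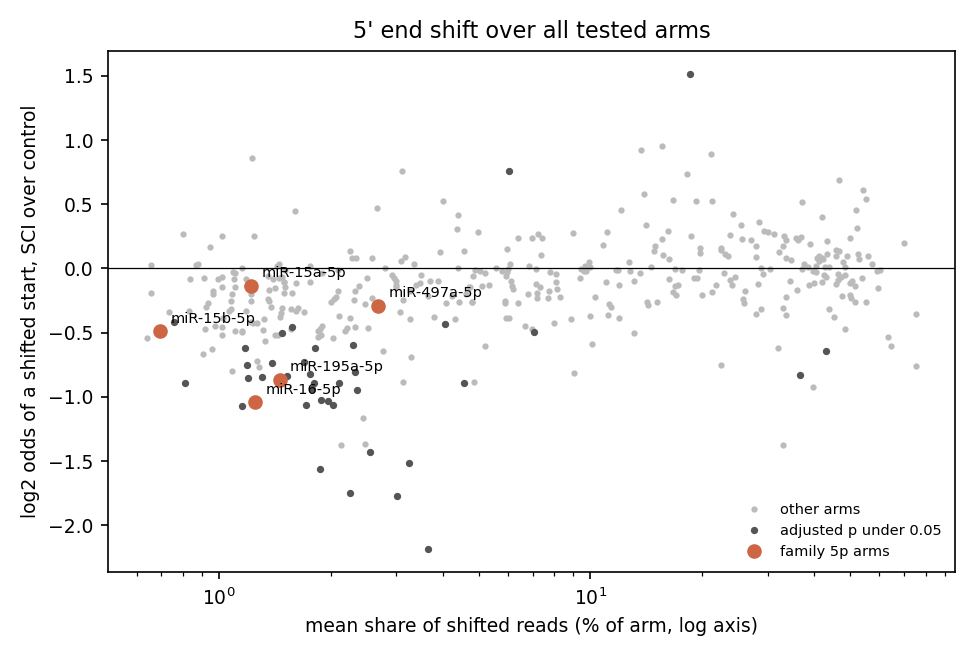
Log2 change of the odds of a shifted 5′ start (SCI over control) against the mean share of shifted reads (percent, log axis) for the 421 arms tested; dark points had an adjusted p under 0.05 and orange points are the family's 5p arms. miR-16-5p and miR-195a-5p lie near -1.04 and -0.87 among other arms that fell, and the other 3 members lie between -0.49 and -0.13.

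Most of the shifted reads of both arms began 1 base further in. For miR-16-5p such reads were 1.34%, 1.30% and 1.07% of the arm in control and 0.504%, 0.440% and 0.379% in SCI. Reads beginning 1 base earlier were 0.244%, 0.304% and 0.283% in control and 0.312%, 0.283% and 0.302% in SCI, so the difference lay on the inner side. miR-195a-5p had the later start in 1.53%, 1.36% and 1.22% of reads in control and 0.691%, 0.536% and 0.536% in SCI. Its earlier start went the other way, at 0.225%, 0.200% and 0.247% in control and 0.346%, 0.308% and 0.323% in SCI, also without overlap. With the later start alone, an alternative added after the data had been seen, the log2 changes were -1.50 for miR-16-5p and -1.24 for miR-195a-5p (limma adjusted p = 0.00390 for both), and 68 arms were called. miR-15a-5p, which had the later start in 0.651% to 0.822% of reads in control and 0.680% to 0.735% in SCI, changed by -0.01. Reads with the later start carry GCAGCAC at bases 2 to 8 in all 5 members, and none of the 1679 mature miRNAs in the RefSeq table has that seed.

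miR-15a-5p, miR-15b-5p, miR-16-5p and miR-195a-5p have the same first 9 bases, yet their log2 changes ranged from -1.04 to -0.13. Differences between members within each library are given as a description with no test, since the pairs were chosen after these changes had been seen. The log2 odds of a shifted start in miR-16-5p minus that in miR-15a-5p were 0.41, 0.45 and 0.32 in control and -0.49, -0.52 and -0.54 in SCI. The sign thus turned: miR-16-5p was the more often shifted of the pair in every control library and the less often shifted in every SCI library. For miR-195a-5p minus miR-15a-5p the values were 0.64, 0.53 and 0.50 in control and -0.12, -0.25 and -0.16 in SCI.

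Reads of miR-497a also departed from the annotated sequence within the molecule, a pattern noticed after the data had been seen. They are given as substitutions, with the annotated base first, its position counted from 1 at the 5′ end of the mature sequence, and then the base read. In the 5p arm, A2G lies in the first base of the seed and was carried by 3081 reads. The most abundant such read (2200 reads, the read base in a capital) was in no exact stretch of any GENCODE transcript.
miR-497a-5p with A2G: cGgcagcacactgtggtttgt
miR-497a-3p with A20G: caaaccacactgtggtgttGga
The share of A2G among reads over that base was 7.26% (716 of 9863 reads, 95% Wilson interval 6.76% to 7.79%), 7.85% and 7.87% in control, and 7.74%, 7.75% and 7.14% in SCI. The values lay within 1 percentage point of each other. The group means were 7.66% ± 0.347 and 7.54% ± 0.351 (exact permutation p = 0.5, adjusted p = 0.5 over the 2 sites). No mature miRNA in the RefSeq table has the seed GGCAGCA that A2G gives.

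In the 3p arm, A20G was in the larger part of the reads. Its share was 67.6%, 75.8% and 77.4% in control and 52.2%, 65.1% and 68.1% in SCI. These shares rest on 23 to 185 reads over the base per library, and for SCI 1, with 12 of 23 reads, the Wilson interval runs from 33.0% to 70.8%. The means of 73.6% ± 5.27 and 61.8% ± 8.45 overlapped in range (exact permutation p = 0.2, adjusted p = 0.4). Intervals cover counting error only, since the reads carry no molecular identifiers. The rule of exact matching therefore missed most reads of miR-497a-3p. With the A20G reads added, the arm stood at 13.2, 4.60 and 5.50 CPM in control and 2.32, 4.08 and 3.39 CPM in SCI, where every SCI library lay below every control library, as in 11.2% of all arms (log2 change -1.26, edgeR adjusted p = 0.253). Control 1 made up much of this: without it the log2 change was -0.61 (edgeR adjusted p = 0.344). The 3p over 5p ratio of Mir497 with these reads had a log2 change of -1.20 (limma adjusted p = 0.161), and of -0.97 without control 1 (limma adjusted p = 0.356).

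At 32 other A positions of the member arms, A-to-G reads made up a median of 0.0210% and at most 0.50%, the last at A5G of miR-195a-5p (1354 reads). RNA editing enzymes turn adenosine into inosine, which is read as G. Whether the G was in the RNA only or also in the genome of these mice was not tested.

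**Figure D4:**
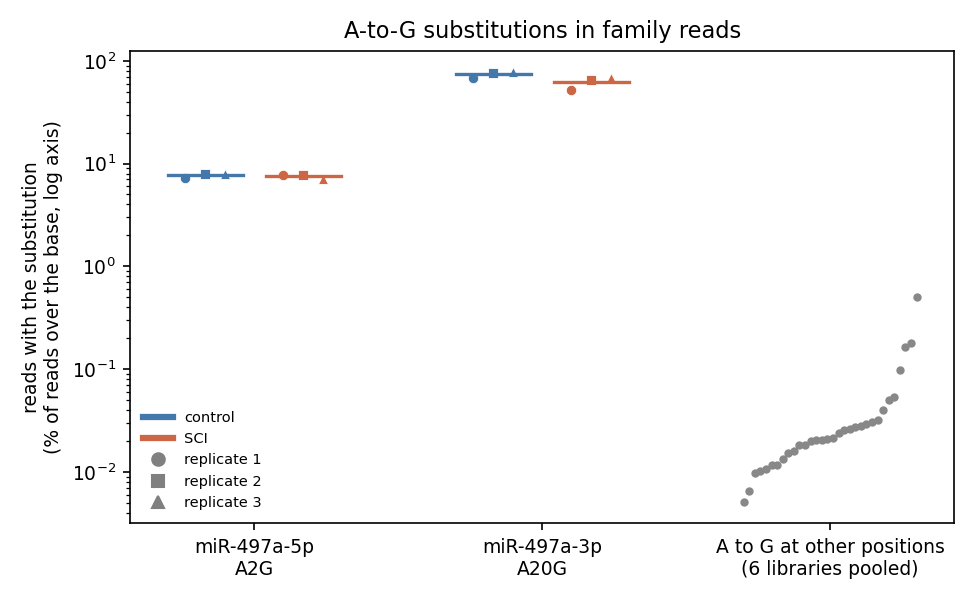
Share of reads with an A-to-G substitution, in percent of the reads over the base on a log axis, for 2 positions of miR-497a by library (bars are group means) and for 32 other A positions of the family arms with the 6 libraries pooled. The 32 are positions with A-to-G reads and at least 500 matching reads, none of them in miR-497a-3p. The miR-497a-5p position lies near 7.66%, the miR-497a-3p position near 73.6% in control and 61.8% in SCI, and the other positions at 0.50% or less.

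The 3′ ends set the members apart from each other more than the groups. Reads that matched an arm only after removal of 1 to 3 bases at the 3′ end were taken as tailed, and their share is in percent of the arm plus those reads. The most abundant tailed reads of 4 arms show the added base as a capital.
miR-16-5p: tagcagcacgtaaatattggcA
miR-15a-5p: tagcagcacataatggtttgtgA
miR-195a-5p: tagcagcacagaaatattggcaA
miR-497a-5p: cagcagcacactgtggtttgtaT
Added A was carried by 13.6%, 10.5% and 11.2% of miR-16-5p in control and 12.1%, 12.0% and 11.8% in SCI. For miR-15a-5p it was 17.2%, 12.3% and 12.6% in control and 13.0%, 11.9% and 11.4% in SCI. Both overlapped between groups. miR-195a-5p carried less, at 3.80% to 5.61% in control and 4.22% to 5.83% in SCI, and miR-15b-5p 1.17% to 1.48% over all libraries.

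miR-497a-5p carried added A in 2.89%, 4.26% and 4.19% of reads in control and 6.84%, 4.79% and 5.52% in SCI. All SCI values lay above all control values, as they did in 20.7% of the 392 arms tested (1.53% lay below, 22.2% either). The log2 change of 0.63 ± 0.22 did not pass (limma adjusted p = 0.358), nor did any arm (0%, with 52 arms, 13.3%, at an unadjusted p under 0.05).

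Added U (read as T) followed another order. It was rare in miR-16-5p (0.283% to 0.372% over the 6 libraries) and in miR-195a-5p (0.636% to 0.775%). miR-15a-5p carried it in 8.69%, 6.18% and 6.13% of reads in control and 5.97%, 6.12% and 5.80% in SCI, and miR-497a-5p in 6.72% to 9.54% and 7.20% to 8.49%. miR-15b-5p carried it in 2.41%, 1.97% and 1.83% in control and 1.71%, 1.53% and 1.40% in SCI. The SCI values of miR-15a-5p and miR-15b-5p lay below all control values, as in 5.43% of the 405 arms tested (7.41% lay above, 12.8% either), with log2 changes of -0.23 (limma adjusted p = 0.749; -0.05 without control 1) and -0.42 (limma adjusted p = 0.662).

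Of the 3p arms, miR-16-1-3p carried added U in 16.9%, 15.9% and 18.3% of reads in control and 11.6%, 10.4% and 9.41% in SCI. The groups stood apart, with a log2 change of -0.79 ± 0.15 and the unadjusted p of 0.00103, from a mean of 13 tailed reads per library, and it did not pass (limma adjusted p = 0.209). The untailed reads of miR-16-1-3p include the read outside the mature form. It was 16.7%, 0% and 8.51% of them in control and 13.1%, 16.5% and 18.2% in SCI. Its part in the group difference was not tested. The other copy, miR-16-2-3p, had 6.52% to 17.6% in control and 11.8% to 12.9% in SCI. miR-15b-3p had 13.9% to 17.8% and 11.7% to 18.9%, and miR-195a-3p 11.6% to 13.2% and 11.3% to 22.4%, all overlapping. None of the 405 arms passed (0%, with 29, 7.16%, at an unadjusted p under 0.05). Added C and added G, as a background, stayed at 0.309% or less and 0.736% or less in the 5p arms.

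**Figure D5:**
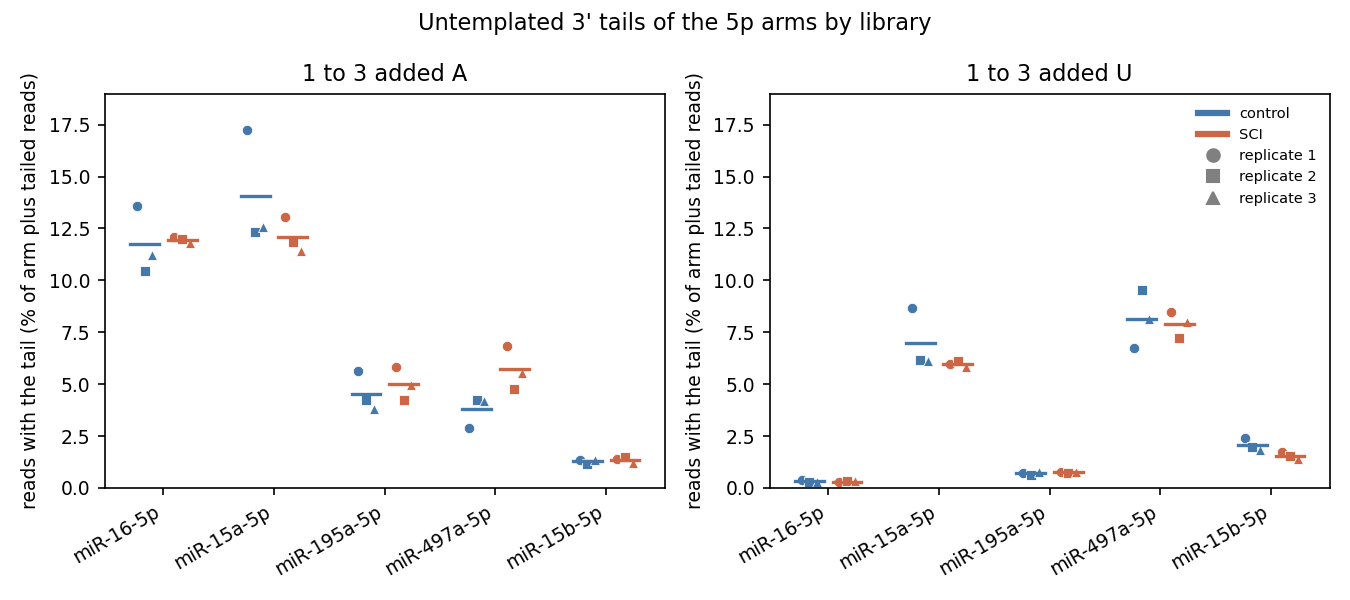
Share of reads of each 5p arm with 1 to 3 added A (left) or U (right) at the 3′ end, in percent of the arm plus its tailed reads, by library; bars are group means and symbols mark replicates. miR-16-5p and miR-15a-5p carry added A in 10.5% to 17.2% of reads, while added U is above 5% in miR-15a-5p and miR-497a-5p alone.

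The length of the untailed reads also differed by member. The most abundant read was 22 nt long for miR-16-5p, miR-15b-5p and miR-195a-5p and 21 nt for miR-15a-5p and miR-497a-5p. In miR-497a-5p that read made up 59.1%, 57.2% and 58.6% of the arm in control and 69.5%, 61.3% and 66.4% in SCI, so that all SCI libraries lay above the controls, as in 7.54% of the 557 arms tested (11.7% lay below, 19.2% either). Its 22 nt form was 34.2%, 32.2% and 30.7% in control and 19.2%, 27.3% and 23.0% in SCI. The log2 change of the most abundant read over all others was 0.46 ± 0.16 (limma adjusted p = 0.437). In miR-15b-3p the most abundant read was 42.2%, 46.7% and 48.6% of the arm in control and 36.0%, 33.6% and 38.0% in SCI. This was the lowest adjusted p among the 9 members tested on this measure (log2 change -0.59 ± 0.14, limma adjusted p = 0.343). No arm passed (0%, with 53, 9.52%, at an unadjusted p under 0.05).

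The nearest relatives by seed or cluster were taken from a list of 17 arms, mainly the X-linked cluster of miR-322, miR-503, miR-351, miR-542 and miR-450. miR-322-5p has the family seed, and miR-503-5p has AGCAGCG in its place.
miR-322-5p: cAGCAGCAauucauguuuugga
miR-503-5p: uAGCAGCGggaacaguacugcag
Of the 17, 5 had no read (miR-195b, miR-1907, miR-6342, miR-6353 and miR-6419) and 10 could be tested. Of these, 2 were higher and 8 lower in SCI, none passed the edgeR test, and the median log2 change was -0.28. In 3 of the 10 every SCI library lay below every control library, against 11.2% of all 690 arms. In 0 of them every SCI library lay above, against 9.13% of all arms. Before adjustment 1 of the 10 had an edgeR p under 0.05, against 14.1% of all arms. miR-322-5p, the most abundant, measured 326, 275 and 330 CPM in control and 243, 281 and 278 CPM in SCI (log2 change -0.22 ± 0.14, edgeR adjusted p = 0.525), a level between those of miR-15b-5p and miR-497a-5p in the group means. miR-503-5p measured 18 to 22.0 CPM in control and 7.06 to 33.2 CPM in SCI. The smallest p was that of miR-450b-5p, at 2.53, 2.24 and 1.41 CPM in control and 0.516, 1.25 and 1.15 CPM in SCI (log2 change -1.01, edgeR adjusted p = 0.284).

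As a description of likeness, the 236 other arms with a mean of at least 100 CPM were ranked by the root mean square difference of log2 CPM over the 6 libraries, each arm centred on its mean. The 3 nearest were miR-340-3p, miR-872-5p and miR-129-1-3p for miR-16-5p, and miR-212-5p, miR-320-3p and miR-129-1-3p for miR-195a-5p. They were miR-30b-5p, miR-30a-5p and miR-324-5p for miR-15a-5p, miR-139-3p, let-7b-5p and miR-485-5p for miR-15b-5p, and miR-20a-5p, miR-376a-5p and miR-384-5p for miR-497a-5p. None of these places went to another member. miR-195a-5p and miR-497a-5p, of 1 cluster, differed by 0.45 and stood at place 202 and 207 in each other's ranking, beyond the medians of 0.31 and 0.32. miR-16-5p stood at place 15 for miR-15b-5p and at place 16 for miR-195a-5p.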

How the data were processed

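The authors deposited, per the file headers, the raw read count of each distinct sequence (17 to 34 nt) in each of the 6 libraries. RNA was extracted with mirVana and ligated to HD adapters, per the labels' protocols; the build GRCm38 is from the submitters' processing notes, and trimming is not given in the sources used here. Here, reads of 18 to 26 nt were matched without mismatch to 1174 GENCODE M21 hairpins and summed per arm by read midpoint. Arms were joined where their top read was the same or they shared at least 50% of reads, and remaining ambiguous reads (0.100% to 0.153% of each library) were left out. A read carrying another base or a tail is thus not in the arm counts. Mir15b's annotated hairpin ends 1 base after its 3p arm.

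Arm counts were tested with edgeR 4.0.16 (quasi-likelihood, TMM, filterByExpr with a minimum count of 10; R 4.3.3). The SE is the log2 change divided by the square root of F. Arm ratios, 5′ shifts, tails and most abundant reads were tested with limma 3.58.1 on log2 ratios with a pseudocount of 0.5, for features with a mean of at least 10 reads in both classes, which understates changes of low counts. P-values were adjusted by Benjamini-Hochberg over all features, with 0.05 as the threshold. For single values the test was an exact permutation (two-sided). DESeq2 1.42.0 and limma-voom were alternatives. On counts simulated with the same spread set for every arm, not estimated from these data, edgeR recovered 90.8% of changes of 1 log2 unit among 681 arms. On such counts limma recovered 49.1% among 663 ratios. Neither share gives the power of the tests on these data. Python 3.11.15, pandas 2.3.3, scipy 1.17.1 and matplotlib 3.10.9 were used.

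All arms of the members are named. Members and lists were chosen with earlier results of these data known. The labels state individual collection but no batch. The p-values weigh group differences against the spread between these samples, and the part of an unlabelled batch in either cannot be told apart. No 2 libraries agreed within sampling noise.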

Additional observations from a re-analysis of the deposited data

How the results depend on the processing

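Of the calls, those on arm counts depended on the test and the filter: 12 arms were called by DESeq2 and 30 without a low count filter, 2 of them members, and leaving out 1 library gave 0 to 7. Leaving out 1 library gave 0 to 44 calls of a 5′ shift, with 0 to 3 members among them; the cause was not tested. With the start 1 base later alone, added after the data had been seen, 68 arms were called. The shift of miR-16-5p and miR-195a-5p kept its direction under all 11 alternatives run for each, and no alternative reversed miR-195a-3p (-1.11 to -0.77 with 1 library left out).

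Directions that turned belonged to log2 changes that did not pass, and the cause was not tested. In arm counts, miR-16-1-3p was 0.11 with total miRNA count scaling, 0.021 with the upper quartile, 0.037 with all library reads and 0.13 for the most abundant read only, for which miR-16-2-3p was 0.051 and miR-15b-3p -0.053. miR-16-2-3p was 0.043 with total miRNA count scaling, and miR-15a-5p -0.036 with tailed reads added. With 1 library left out, ranges were -0.083 to 0.064 (miR-15a-5p), -0.11 to 0.15 (miR-16-5p), -0.10 to 0.16 (miR-16-1-3p), -0.26 to 0.22 (miR-16-2-3p), -0.065 to 0.24 (miR-195a-5p) and -0.15 to 0.30 (miR-497a-5p). For the 3p over 5p ratio they were -0.21 to 0.00059 (Mir15a), -0.089 to 0.14 (Mir15b), -0.24 to 0.26 (Mir16-1) and -0.38 to 0.36 (Mir16-2). For the 5′ shift they were -0.47 to 0.11 (miR-16-1-3p), -0.34 to 0.21 (miR-16-2-3p) and -0.37 to 0.21 (miR-497a-3p, 0.0092 with a pseudocount of 5). For U tails they were -0.27 to 0.13 (miR-15b-3p), -0.13 to 0.055 (miR-16-5p), -0.56 to 0.24 (miR-16-2-3p) and -0.17 to 0.10 (miR-497a-5p). For A tails they were -0.0037 to 0.16 (miR-15b-5p, -0.069 with 1 added base only) and -0.054 to 0.16 (miR-16-5p). For the most abundant read they were -0.20 to 0.16 (miR-16-5p), -0.10 to 0.28 (miR-16-1-3p) and -0.11 to 0.077 (miR-195a-5p). For the log2 ratios between members they were -0.38 to 0.30 (miR-195a-5p over miR-497a-5p, -0.14 for the most abundant read only), -0.082 to 0.11 (miR-15a-5p over miR-16-1-3p), -0.16 to 0.57 (miR-15b-5p over miR-16-2-3p), -0.10 to 0.14 (miR-16-1-3p over miR-16-2-3p, -0.034 for the most abundant read only and -0.038 with tailed reads added) and -0.028 to 0.19 (miR-195a-5p over miR-16-5p).

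The labels do not say whether replicate numbers pair the samples, and deviations from means of 3 libraries cannot settle it. Those of same-numbered libraries correlated at 0.20, -0.05 and -0.07 over 690 arms. Control 1 and SCI 1 were each other's best match, while control 2 matched SCI 3 best (0.19) and control 3 SCI 2 (0.22). On the second principal component (28.0% of the variance) control 1 stood at 6.57 and SCI 1 at 5.26, the other libraries at -8.37 to -0.18. A shared batch was not tested. With the replicate number as a block, 0 arms were called in counts (edgeR, 103 at an unadjusted p under 0.05) and 31 in the 5′ shift, miR-16-5p and miR-195a-5p still among them, and miR-16-1-3p stood at 0.0024. Depth limits the 3p arms, at 12 to 152 reads per library.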
